A study of Mus musculus with 2 samples.

Results

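The BCL2 family is the set of proteins that decides, at the outer mitochondrial membrane, whether a cell enters the intrinsic pathway of apoptosis. Its genes were followed here in a pair of stable mouse embryonic stem cell lines, and the set covers 10 genes chosen by symbol: Bcl2, Bcl2l1, Bcl2l11, Mcl1, Bak1, Bid, Bad, Bik, Bmf and Pmaip1. All probe sets whose platform annotation gives 1 of these symbols and no other were taken, which gave 12 probe sets for the 10 genes, of 23521 such probe sets for 22180 genes on the array. For Bcl2 and Mcl1, which have more than 1 probe set, the one with the higher mean over both samples stands for the gene.

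The experimental line carries EWS-OCT4A-GFP, a fusion of the N-terminal part of the EWS protein to OCT4A, the pluripotency isoform of the transcription factor OCT4. The control line carries GFP. Both derive from the NIWA embryonic stem cell line, both were grown with LIF, the cytokine that keeps mouse embryonic stem cells self-renewing, and both were given 1 µg/ml of doxycycline, which turns down their own OCT-4, so the control too is a line with lowered OCT-4. Each line was measured in 1 sample on an Affymetrix expression array, no sample without doxycycline was included, and the sources used here do not give the promoter of the transgenes, the number of clones or the length of the treatment. No difference below therefore has a replicate check, no test is given, and a difference cannot be split into a change in either line.

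Family members share the short BH3 motif and fall into 3 roles. Pro-survival proteins such as BCL2, BCL-XL and MCL1 hold the pathway shut by binding the other members in a groove on their surface. The effectors BAK and BAX permeabilise the outer mitochondrial membrane and let cytochrome c out, which starts the caspases. BH3-only proteins such as BIM, BID and BAD report stress by occupying the groove of the pro-survival proteins or by activating the effectors directly. Embryonic stem cells are known for a low threshold for apoptosis, and MCL1 and BCL-XL for their part in keeping them alive.

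Of the 4 members that differed by at least 2-fold, 3 have an entry among the RefSeq promoter sequences, and the stretches upstream of them are printed here. Which start of a gene these cells use was not tested, so these stretches need not hold the promoters in use. Each is the 250 bases just before the most upstream start listed for the gene, 5′ to 3′ on the strand of the gene, in build GRCm38.p6. They are from chr2:128125788-128126037 on the plus strand for Bcl2l11, from chr6:120916825-120917074 on the minus strand for Bid and from chr2:152831729-152831978 on the minus strand for Bcl2l1. Capitals mark matches on either strand to the FoxO site GTAAACA, the ETS site CCGGAAGT, the GC box GGGCGG, the CCAAT box of those letters or the octamer ATGCAAAT, which POU factors bind.
Bcl2l11: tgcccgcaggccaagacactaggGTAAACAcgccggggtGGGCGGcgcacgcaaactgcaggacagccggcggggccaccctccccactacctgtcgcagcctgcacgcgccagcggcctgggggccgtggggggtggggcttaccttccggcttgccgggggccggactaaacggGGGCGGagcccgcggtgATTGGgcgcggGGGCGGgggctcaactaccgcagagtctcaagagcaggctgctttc
Bid: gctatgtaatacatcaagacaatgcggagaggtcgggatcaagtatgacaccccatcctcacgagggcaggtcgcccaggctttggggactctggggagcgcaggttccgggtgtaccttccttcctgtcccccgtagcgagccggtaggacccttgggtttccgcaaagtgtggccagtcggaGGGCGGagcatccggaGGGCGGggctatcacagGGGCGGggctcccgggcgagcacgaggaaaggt
Bcl2l1: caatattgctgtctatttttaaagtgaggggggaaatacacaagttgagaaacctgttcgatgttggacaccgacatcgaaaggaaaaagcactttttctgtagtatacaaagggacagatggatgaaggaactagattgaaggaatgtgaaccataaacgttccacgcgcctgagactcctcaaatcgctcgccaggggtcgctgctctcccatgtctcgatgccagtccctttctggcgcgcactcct

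The upstream stretch of Bcl2l11 held 1 match to the FoxO site, which begins 227 bases before the start, 3 GC boxes and 1 CCAAT box. None of these motifs contains another. The stretch of Bid held 3 GC boxes and no other of these motifs, and that of Bcl2l1 held none of the motifs searched. Both of the higher genes thus held GC boxes and Bcl2l1 none, but Bik, the other lower gene, has no window. GC boxes were also held by Bcl2, Bad and Mcl1, which were within 2-fold, and they are common. Among 32851 windows of the same length in the RefSeq table, where a gene with several starts has several windows, 32.7% held a GC box, 33.8% a CCAAT box, 3.17% the FoxO site, 2.88% the ETS site and 1.6% the octamer. Of the 8 members with a window (Bik and Pmaip1 are the others), 5 held a GC box, 2 a CCAAT box, 1 the FoxO site and 0 the ETS site or the octamer. The table lists 2 starts for Bcl2l11 and 3 for Bcl2l1, and stretches before the other starts were not searched. A match describes the letters and is not a binding site, and the lack of one says only that these letters are not in the window.

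The values are RMA summaries on a log2 scale, so a difference of 1 is 2-fold. A gene was counted as higher or lower when its log2 value in the EWS-OCT4A-GFP sample less that in the control was at least 1 in size and the higher of the pair reached a floor of 4.10, the median over the whole table. All 10 members met this floor, and in all 10 both values did, so none was counted through a single high reading. By this rule 2 of the 10 members were higher with the fusion and 2 were lower, whereas among the 13516 genes that met the floor 9.31% were higher and 11.9% were lower. A single member is 10% of the family, so these counts lie close to the background and nothing particular to the family is read from them. Over probe sets in place of genes the shares were 9.29% and 10.6%. At 1.5-fold, 3 members were higher, against 20.0% of all genes, and 2 were lower, against 20.6%. The third higher member, Mcl1, was just past this size at 1.53-fold and fell short of it under loess centring, with a difference of 0.51. At 3-fold 0 members were counted in either direction, against 3.43% of genes higher and 5.82% lower. Over the family the median difference was -0.04, beside 0.03 over all genes at or above the floor, and the median size of a difference was 0.53 beside 0.46. Of the 10 members, 4 read higher with the fusion, 5 lower and 1, Bad, the same. Among all genes meeting the floor, 51.2% read higher and 47.5% lower, so this split is close to the background. Bad turned slightly negative under each of the 3 other scalings tried.

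The lines also differed in markers of cell state. All 8 listed embryonic stem cell markers read higher in the EWS-OCT4A-GFP sample, and the 7 at or above the floor by at least 2-fold (9.31% of all genes were). The summed level of the 8, the log2 of the sum of the unlogged values, was 12.6 there and 8.97 in the control. All 10 trophectoderm markers read lower, 8 of them by at least 2-fold (11.9% of all genes were), with summed levels of 8.48 and 12.5. Cdx2 (-0.55) and Elf5 (-0.81) stayed within 2-fold. Of 8 primitive endoderm markers, 4 were at least 2-fold lower, against the same 11.9%, with summed levels of 7.36 and 8.81. The others were Sox7, which was higher by 0.709, Gata4 (-0.115), Foxa2 (-0.209) and Sox17, which was under the floor. Of 8 fibroblast markers, which would report feeder cells, 1 was at least 2-fold lower (summed levels 7.24 and 7.76), which is close to that share. Postn, the fibroblast marker counted, and Hand1 and Elf5 of the trophectoderm list met the floor in 1 of the 2 samples only. So did Gata6 of the primitive endoderm list and Esrrb of the stem cell list. The sizes of the differences of all these markers are therefore uncertain. The defining stem cell genes Nanog (10.5 with the fusion, 5.94 in the control) and Sox2 (9.87 and 5.50) were above the floor in both samples. The fibroblast marker Dcn read 2.205 in both, under the floor, a difference of 0. These shifts run alongside every difference given here, those of Bcl2l1, Bik, Bid and Bcl2l11 included, and their part in them was not tested. In bulk RNA, fewer cells of a type and less RNA per cell cannot be told apart.

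**Figure D1:**
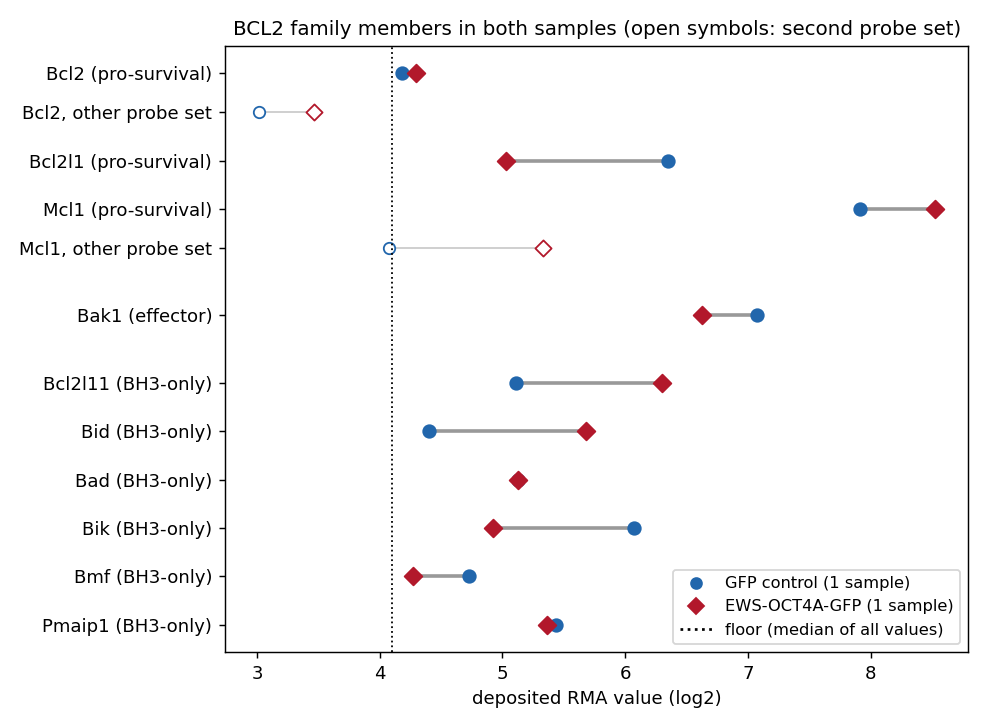
Deposited log2 RMA values (horizontal axis) of each BCL2 family gene in the GFP control (circles) and the EWS-OCT4A-GFP sample (diamonds), 1 sample each, with open symbols for a second probe set and a dotted line at the floor of 4.10. The widest separations are those of Bcl2l1 (5.03 with the fusion and 6.35 without) and Bid (5.69 and 4.41), in opposite directions, and the 2 symbols of Bad coincide at 5.12.

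Of the 3 pro-survival genes, Bcl2l1 read lower with the fusion and Mcl1 and Bcl2 read higher. Bcl2l1 (probe set 17392991), which encodes BCL-XL and its shorter splice form BCL-XS, read 5.03 with EWS-OCT4A-GFP and 6.35 in the GFP control. It was lower by a log2 difference of -1.32, or 2.49-fold, the largest among the 10 members, and 7.95% of genes meeting the floor were lower by as much. The sources used here do not say which exons the probe set covers, so the splice forms are not told apart.

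Mcl1, which encodes a short-lived pro-survival protein, read 8.52 with EWS-OCT4A-GFP and 7.91 in the control on probe set 17400418. The difference was 0.61, or 1.53-fold, under the 2-fold size. A second probe set of Mcl1 (17407826) read 5.33 and 4.08, a difference of 1.25 with the control value just under the floor. Both probe sets were thus higher in the EWS-OCT4A-GFP sample, but by sizes that lie on either side of 2-fold.

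Bcl2, the founding member of the family, read 4.29 with EWS-OCT4A-GFP and 4.18 in the control on probe set 17226043, a difference of 0.11. Its second probe set (17216395) read 3.46 and 3.01, both under the floor. How far these readings lie above background is unknown, so at this level a difference can be compressed and the readings do not show that Bcl2 was equal in the 2 lines.

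The effector gene among the members is Bak1. It read 6.63 with EWS-OCT4A-GFP and 7.08 in the control (probe set 17342676), a difference of -0.45, and 25.2% of genes meeting the floor were lower by as much. Bax, the other widely expressed effector gene, was not analysed here. Bok, a BAK-like effector gene that is not among the members, read 5.23 and 4.97, a difference of 0.27. Neither Bak1 nor Bok reached 2-fold.

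The BH3-only genes spanned nearly the whole range of the family, from Bid at 1.28 to Bik at -1.15. Of the 6, 2 were at least 2-fold higher in the EWS-OCT4A-GFP sample (9.31% of all genes were), 1 was at least 2-fold lower (11.9%) and 3 stayed within 2-fold, with a median of -0.04. Bid encodes a protein that caspase-8 cleaves to carry the death receptor signal to mitochondria. It read 5.69 with EWS-OCT4A-GFP and 4.41 in the GFP control (probe set 17470457), a difference of 1.28 or 2.43-fold, and 5.67% of genes meeting the floor were higher by as much. The control value lies just above the floor, where a difference can be compressed.

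Bcl2l11 encodes BIM, a BH3-only protein that binds all the main pro-survival members and whose gene is a known target of FoxO factors. It read 6.30 with EWS-OCT4A-GFP and 5.11 in the control (probe set 17375961), a difference of 1.19 or 2.28-fold. As many as 6.62% of genes meeting the floor were higher by this much or more. Bid and Bcl2l11 were the members that were at least 2-fold higher, a count close to the background (9.31% of all genes were).

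Bik, which encodes a BH3-only protein of the endoplasmic reticulum membrane, went the opposite way. It read 4.92 with EWS-OCT4A-GFP and 6.07 in the GFP control (probe set 17313647), a difference of -1.15 or 2.22-fold. Of all genes meeting the floor, 9.82% were lower by as much. Bmf, which encodes a BH3-only protein held on the cytoskeleton by dynein light chain, read 4.27 and 4.73 (probe set 17389724). Its difference was -0.46, in the same direction as Bik but within 2-fold.

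The remaining BH3-only genes differed least. Pmaip1, which encodes NOXA, a p53-responsive protein that binds MCL1, read 5.36 and 5.44 (probe set 17351414), a difference of -0.08. Bad, which encodes a protein that growth factor signalling inactivates by phosphorylation, read 5.12 in both samples (probe set 17356974), to the last of 3 decimals. Such exact ties were seen for 168 of the 13516 genes that met the floor, or 1.24%. A further probe set is annotated to Bad together with Gpr137 and is not a member. It read 4.73 and 5.09, a difference of -0.36.

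**Figure D2:**
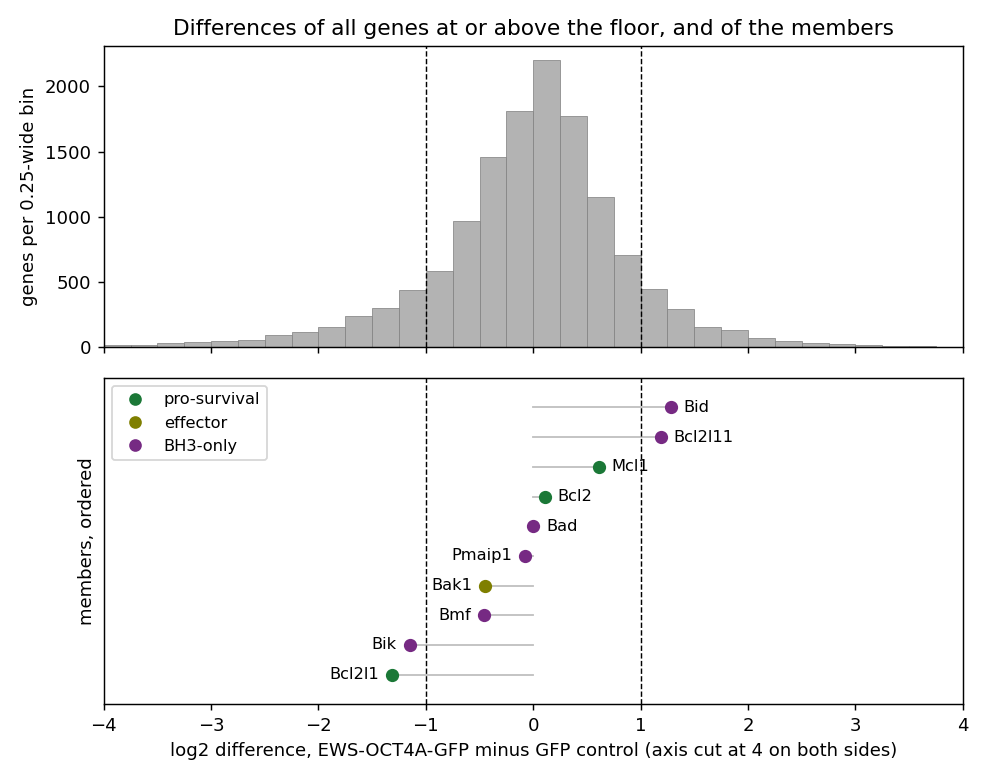
Upper panel, number of genes meeting the floor in bins of log2 difference, EWS-OCT4A-GFP minus GFP; lower panel, the same difference for the 10 BCL2 family genes, ordered and coloured by role, with dashed lines at 2-fold. Bid (1.28) and Bcl2l11 (1.19) lie beyond the right line, Bik (-1.15) and Bcl2l1 (-1.32) beyond the left, and the other 6 lie between.

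The smallest difference counted as 2-fold was that of Bik and the largest not counted that of Mcl1, with no member between -1.15 and -0.46 on the lower side or between 0.61 and 1.19 on the higher side. Each direction held BH3-only genes, and the pro-survival genes lay on both sides of 0.

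Other genes of the family were measured less well. Of 16 further family genes looked for, 11 had a probe set with 1 symbol, and 5 of those lay under the floor in both samples. Bax, Bcl2a1b, Bcl2a1d, Bcl2l12 and Bnip3l were not analysed here. Of the 6 genes that met the floor, 0 were at least 2-fold higher (9.31% of all genes were) and 1 was at least 2-fold lower (11.9%). The median difference over these 6 was -0.47, with 2 above 0 and 4 below 0. Over all 11 measured it was -0.39, with 2 above 0, 8 below 0 and 1 at 0 (1 above and 10 below under loess centring). Those 11 include the 5 under the floor, whose signs cannot be interpreted. Among all genes that met the floor, 51.2% read above 0 and 47.5% below 0. The gene that was at least 2-fold lower was Bnip3, a hypoxia-responsive gene whose product works in mitochondrial autophagy. Bnip3 read 2.52 with EWS-OCT4A-GFP and 5.99 in the control. It met the floor through the control alone, so the size of its difference (-3.47) is uncertain.

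The pro-survival gene Bcl2l2, encoding BCL-W, read 5.14 with EWS-OCT4A-GFP and 5.55 in the control, a difference of -0.41. Bbc3, which encodes PUMA, a BH3-only protein induced by p53, read 5.03 and 4.999, a difference of 0.03. Like Pmaip1, the other classical p53-induced BH3-only gene, it thus differed by less than 0.10 in size in the deposited values. Pmaip1 was at -0.103 under median centring and at -0.15 under loess centring, where Bbc3 was just below 0. Bcl2l13 read 6.54 and 7.06, and Bcl2l14 read 3.97 and 4.62, differences of -0.52 and -0.65, with the lower Bcl2l14 value under the floor. Bcl2l10, Bcl2l15, Hrk, which encodes a BH3-only protein best known from neurons, Bcl2a1a and Bcl2a1c read between 2.21 and 3.20 in both samples, and their differences at such readings cannot be interpreted. The Bcl2a1 genes are near-identical copies whose probes can be shared.

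Downstream of the family lies the mitochondrial pathway of apoptosis. Of 22 genes listed for it, 20 were measured and all 20 were at or above the floor. Of these, 1 was at least 2-fold higher in the EWS-OCT4A-GFP sample (9.31% of all genes) and 2 were at least 2-fold lower (11.9%), with a median of 0.04, which turned to -0.05 under loess centring.

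The higher gene was Parp1, whose product is a DNA repair enzyme and a classical caspase substrate. It read 9.83 with EWS-OCT4A-GFP and 7.61 in the control, a difference of 2.22. The lower genes were Casp6, an executioner caspase gene, at 5.02 and 6.48 (-1.46), and Birc3, which encodes an inhibitor of apoptosis protein, at 5.01 and 6.03 (-1.02). The related genes Birc2 (0.81) and Birc5, which encodes survivin and is also a mitotic gene (0.76), read higher within 2-fold. Apaf1, the scaffold of the apoptosome on which cytochrome c acts, read 6.74 and 7.35, a difference of -0.61, and the initiator caspase gene Casp9 read 5.85 and 5.69, a difference of 0.16.

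In the death receptor pathway, which joins the family through Bid, 12 of 13 genes were measured and 8 of these were at or above the floor. None of the 8 was at least 2-fold higher (9.31% of all genes were) and 1 was at least 2-fold lower (11.9%), with a median of -0.52 over the 12 and -0.33 over the 8. Tnfrsf1a, a receptor for TNF, read 4.79 with EWS-OCT4A-GFP and 6.29 in the control, a difference of -1.50. Tnfrsf10b, the mouse TRAIL receptor gene, differed by -0.88, and Daxx by -0.80. The adaptor gene Tradd read 3.78 and 4.53 (-0.75), with the former under the floor. Casp8, whose product cleaves BID, read 5.55 and 4.83, a difference of 0.71 and thus of the same sign as that of Bid. Ripk1 was not analysed here.

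**Figure D3:**
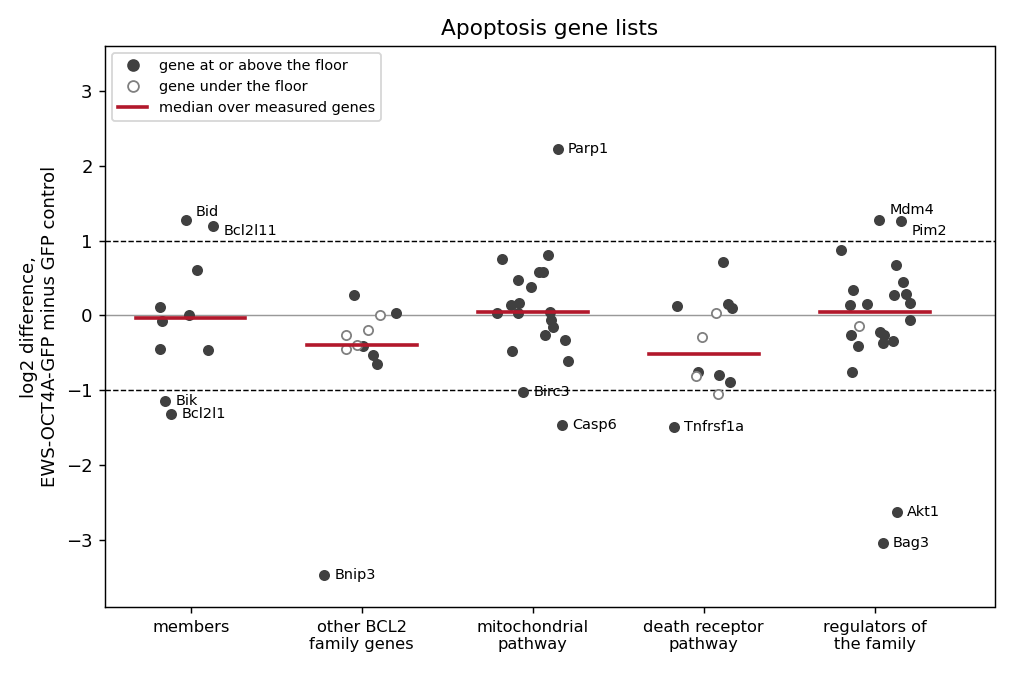
Log2 difference, EWS-OCT4A-GFP minus GFP, of each measured gene (points, open where both values lie under the floor) in the family, in the other genes of the family and in lists of the mitochondrial pathway, the death receptor pathway and regulators of the family; red bars are medians and dashed lines mark 2-fold. Bag3 (-3.03), Akt1 (-2.63) and Parp1 (2.22) lie further from 0 than any of the 10 members, as does Bnip3, whose value with the fusion is under the floor and whose difference is of uncertain size.

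Of 23 genes listed as known to act on the family, 22 were measured and 21 were at or above the floor. Among them 2 were at least 2-fold higher (9.31% of all genes) and 2 at least 2-fold lower (11.9%), and the median over the 22 was 0.04, turning to -0.05 under loess centring. Akt1, the kinase gene whose product phosphorylates BAD and FoxO factors, read 6.31 with EWS-OCT4A-GFP and 8.94 in the control, a difference of -2.63. Bag3, which encodes a co-chaperone that binds BCL2 and is induced by stress, read 5.80 and 8.84, a difference of -3.03. Mdm4, a p53 inhibitor gene, read 9.11 and 7.84, a difference of 1.27. Pim2, whose kinase product also phosphorylates BAD, read 6.34 and 5.08, a difference of 1.26. E2f1, which encodes a factor of cell cycle entry, differed by 0.88.

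Further regulators, picked by role after their values were seen, were within 2-fold. For Bcl2l11, the FoxO genes Foxo3 (6.19 with the fusion, 6.56 in the control) and Foxo1 (6.53 and 6.37) differed by -0.37 and 0.16. For MCL1 protein, the ubiquitin ligase gene Huwe1 differed by -0.26, Fbxw7 by 0.28 and the deubiquitinase gene Usp9x by -0.34. For Pmaip1 and Bbc3, Mdm2, a p53 inhibitor gene that p53 itself induces, differed by -0.40, and Trp53 was not analysed here. For Bmf, the dynein light chain gene Dynll2 differed by -0.26. Ddit3 (-0.75), Tpt1 (0.67) and Trp73 (0.45), of the same list but not picked, differed by more than those picked and were also within 2-fold. The activity and the amount of these proteins were not measured.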

How the data were processed

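The authors deposited 1 table of log2 values for 33793 probe sets in 2 samples, made by RMA in Affymetrix Expression Console 1.1 per the submitters' processing notes. RMA forces the arrays onto 1 distribution by quantile normalization after background correction, so a shift of most transcripts 1 way would not show and low values are compressed. The log2 scale was inferred from RMA and from the range of 0.618 to 13. The series text says that experiments were duplicated, but the sources used here do not say whether a column is 1 array or a mean, and so few arrays limit the precision.

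Names came from the platform annotation: 23521 probe sets had 1 symbol, 1814 several and 8458 none. Gene IDs of 23328 were found in the RefSeq table of GRCm38.p6, and 0 symbols differed. The sources used here do not name the build behind the annotation, so only the RefSeq windows carry coordinates. Differences, counts, motif searches and lists were computed with Python 3.11.15, numpy 2.4.6, pandas 2.3.3 and statsmodels 0.14.6. The counting step was run on simulated data, whose planted changes were larger than the difference of any member. That run does not show how reliable the member counts are. The members and lists were chosen with earlier results of these data known. Named were all members, all other family genes and up to 5 genes of each other list with the largest difference at or above the floor. Apaf1, Casp9, Foxo1, Foxo3, Huwe1, Fbxw7, Usp9x, Mdm2 and Dynll2 were added by role after their values were seen. Ddit3, Tpt1 and Trp73 were then added because they differed by more than the regulators so picked. Likeness of pattern was not ranked, since 2 samples give 1 difference. Alternatives covered the size threshold, the floor, the normalization and the choice of probe set.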

Additional observations from a re-analysis of the deposited data

How the results depend on the processing

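No paired analysis was possible because there is only 1 sample of each line, and leaving out a replicate was likewise not possible. RMA had already quantile normalized the values, so median centring moved each member by only -0.024 and quantile normalization by -0.019 to 0.039. These 2 settings could therefore hardly change a count. Loess centring could not change a member count either, as it moved members by -0.102 to -0.029 and none lay that close to 2-fold. Nor could removing the floor, which every member met in both samples. The counts of 2 members higher and 2 lower kept to 1.5 times under median centring, quantile normalization, loess centring (span 0.3), no floor and the 1.5-fold size. They became 0 and 0 at 3-fold, and 1 was higher with the floor at the 75th percentile (5.80) or at a log2 value of 6, where Bid drops out by construction. Probe sets of the array numbered 1696 higher and 1936 lower at 2-fold, 3784 higher and 3453 lower for a size of 1.5-fold, 611 higher and 937 lower for 3-fold, and 1126 higher where the floor was 6. Differences of single members moved by 0.10 or more in 4 of 41 recomputations. Mcl1 was 0.51 under loess centring and 0.93 as the mean of its probe sets, and Bcl2 was 0.28 as such a mean. Bad was -0.18 with its shared probe set, an alternative chosen after seeing the data. Many of the 41 could not move a member, since only Bcl2 and Mcl1 have more than 1 probe set to average. A difference of at least 2-fold could not reverse either, as the largest shift of a member by a scaling was -0.102. The medians of the members and of the other apoptosis lists moved by less than 0.10; the marker lists were not recomputed, and those of the mitochondrial and regulator lists changed sign under loess centring. Signal over background is unknown.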
